A study of Mus musculus with 2 samples.

Results

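The 8 genes described here, Pla2g4a, Ptgs1, Ptgs2, Ptges, Ptger4, Hpgd, Alox12e and Alox15, were chosen by name from the 20198 genes counted in single cells of mouse cornea. Their products release arachidonic acid from membranes, turn it into prostaglandins or lipoxygenase products, sense prostaglandin E2 or break it down. The levels of each gene were taken in every deposited cluster of cells and in both libraries of the study. One library, UW, pooled the corneal cells of 4 unwounded mice, and the other, W, pooled those of 4 mice killed 24 hours after the epithelium of the central cornea had been scraped off inside a trephine mark. All mice were young males. The labels name no transgene or knockout for these libraries, and the strain is not given in the sources used here.

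Phospholipase A2 of the cytosol, encoded by Pla2g4a, frees arachidonic acid from phospholipids. Prostaglandin H synthases, the cyclooxygenases encoded by Ptgs1 and Ptgs2, convert it to an unstable intermediate, which the synthase encoded by Ptges turns into prostaglandin E2. Ptgs1 is known as the widely and steadily expressed cyclooxygenase and Ptgs2 as the one that injury, growth factors and cytokines induce. Prostaglandin E2 acts on cells through receptors such as EP4, the product of Ptger4, and the dehydrogenase encoded by Hpgd inactivates it. Lipoxygenases such as those encoded by Alox12e and Alox15 instead add oxygen to fatty acids, and in the cornea their products, together with prostaglandins, are known as mediators of inflammation and of epithelial healing.

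The table held 16450 cells of UW and 12417 cells of W, with medians of 22014 and 20290 UMIs (unique molecular identifiers, each standing for 1 captured RNA molecule) per cell. The 2 libraries shared 52 cell barcodes. Each condition is 1 library, so no p-value is given, cells are not replicates, and every interval below covers counting error only. A level is the summed count of a gene over the cells of a cluster per 1000000 UMIs of the same cells (CPM), with an exact Poisson 95% interval.

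The deposited table gives cluster numbers without names. Among lists of cell types, clusters 1 to 9 and 11 scored highest on those of epithelial markers and are called epithelial-like here. Of these, cluster 3 was basal-like (Lamb3 and Itgb4 among its leading genes), clusters 1, 2 and 4 scored highest on suprabasal markers, clusters 6 and 7 were superficial-like (Krt78, Psca, Lce3a), cluster 9 was limbal-like (Wfdc18) and cluster 5 was conjunctival-like (Krt4, Krt19, Krt8). Cell cycle genes led clusters 8 and 11. With cell cycle lists included, the mitotic list was highest in cluster 8 and the S phase list in clusters 9 and 11. Cluster 0 was keratocyte-like (Kera), with Kdr, a vascular marker, also among its leading genes, and cluster 10 was led by Penk and Myoc. Few UW cells fell in clusters 13 to 17 (1, 7, 0, 7 and 0 by number). Cluster 13 was led by Ccl3 and Acod1 and stays unnamed because its cells were shallow and 0 of its list's markers, those of neutrophils, were among its 10 leading genes. All 6 of those markers were detected in it, with Csf3r at 409 CPM and S100a8 at 13612 CPM in W. Cluster 14 was led by MHC class II genes and cluster 15 was macrophage-like (Lyz2, Fcgr1). Cluster 16 was T cell-like (Cd3g, Cd3d), though with mast cell markers at a like level (Mcpt4 at 375 CPM and Cpa3 at 294 CPM beside Cd3e at 358 CPM in W).

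In the summed epithelial-like cells, Ptgs2 was 13.5-fold higher in W (36.96 CPM, 36.2 to 37.7) than in UW (2.75 CPM, 2.57 to 2.93). Ptger4 was 4.64-fold, Alox15 4.41-fold, Ptges 4.07-fold and Hpgd 2.37-fold higher in W. Ptgs1, Alox12e and Pla2g4a differed by less than 2-fold. These ratios of sums join clusters whose share of the cells differed between the libraries, such as cluster 9 (3.17% of all cells in UW, 7.70% in W). Within epithelial-like clusters the fold ran from 0.85 (cluster 9) to 6.38 (cluster 6) for Ptges. It ran from 1.92 (cluster 9) to 15.3 (cluster 2) for Ptger4 and from 1.61 (cluster 5) to 85.5 (cluster 7) for Alox15. Ratios with each cluster weighted equally are given further below. A gene was counted as past the fold when its log2 ratio of CPM, W over UW, was at least 1 or at most -1 and it had at least 20 counts over both libraries. By this rule 5 of the 8 genes were higher, 0 were lower and 3 were neither, where 21.8% of the 16439 genes tested in the same cells were higher and 8.77% were lower. The median log2 ratio of the 8 genes was 1.63, and that of all genes tested was 0.21. With TMM scaling, which estimates a factor from the bulk of the genes, each log2 ratio was 0.22 lower and all 5 genes were still past the fold, with Hpgd closest to it at 1.02.

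The share of all genes past the fold was also taken within single clusters. It was, for genes higher in W, 7.34% in cluster 0, 14.7% in cluster 1, 13.2% in cluster 2, 15.1% in cluster 3, 13.8% in cluster 4, 12.7% in cluster 5, 17.2% in cluster 6, 23.2% in cluster 7, 10.9% in cluster 8, 9.12% in cluster 9, 4.97% in cluster 10 and 12.7% in cluster 11. For genes lower in W it was 9.67% in cluster 0, 11% in cluster 1, 13.1% in cluster 2, 11.1% in cluster 3, 13.5% in cluster 4, 7.47% in cluster 5, 9.58% in cluster 6, 6.48% in cluster 7, 9.58% in cluster 8, 9.76% in cluster 9, 6.63% in cluster 10 and 9.33% in cluster 11. Over the 12 clusters with at least 50 cells of each library, Ptgs2, Ptger4 and Alox15 were higher past the fold in 11 clusters each, Alox12e in 10, Ptges in 8, Ptgs1 in 4, Hpgd in 1 and Pla2g4a in 0. Lower past the fold were Hpgd in 3 clusters, Pla2g4a in 2 and Alox12e in 1, and in 5 clusters Hpgd had too few counts for the rule. Several of these calls rest on low levels, as given gene by gene below, and 3 of those in cluster 7 ended with TMM scaling (Ptgs1 at 0.64, Ptger4 and Alox12e at 0.99).

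**Figure D1:**
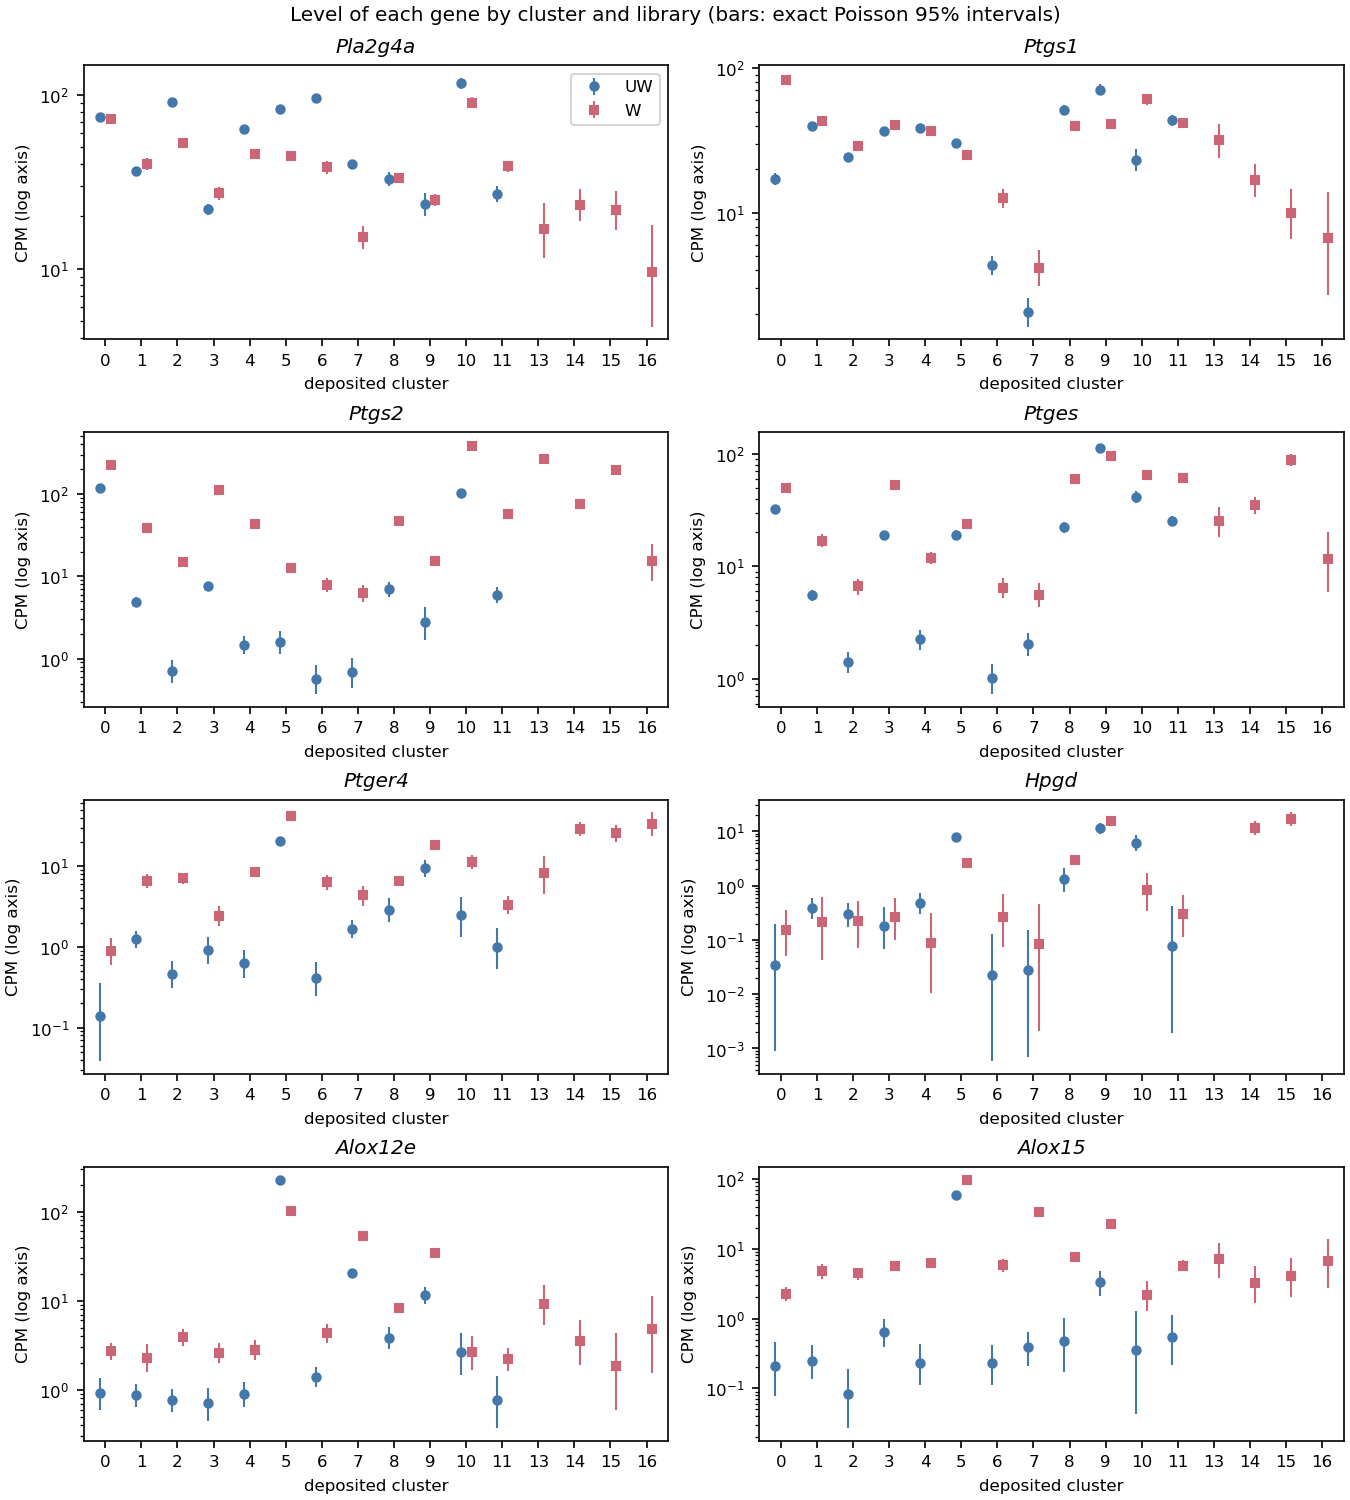
Level of each of the 8 genes in CPM (log axis) by deposited cluster, UW as blue circles and W as red squares, with exact Poisson 95% intervals and groups of fewer than 50 cells or with 0 counts left out. Ptgs2 in W lay above UW in each of the 12 clusters that both libraries filled, and Alox12e and Alox15 stood highest in cluster 5 in both libraries.

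**Figure D2:**
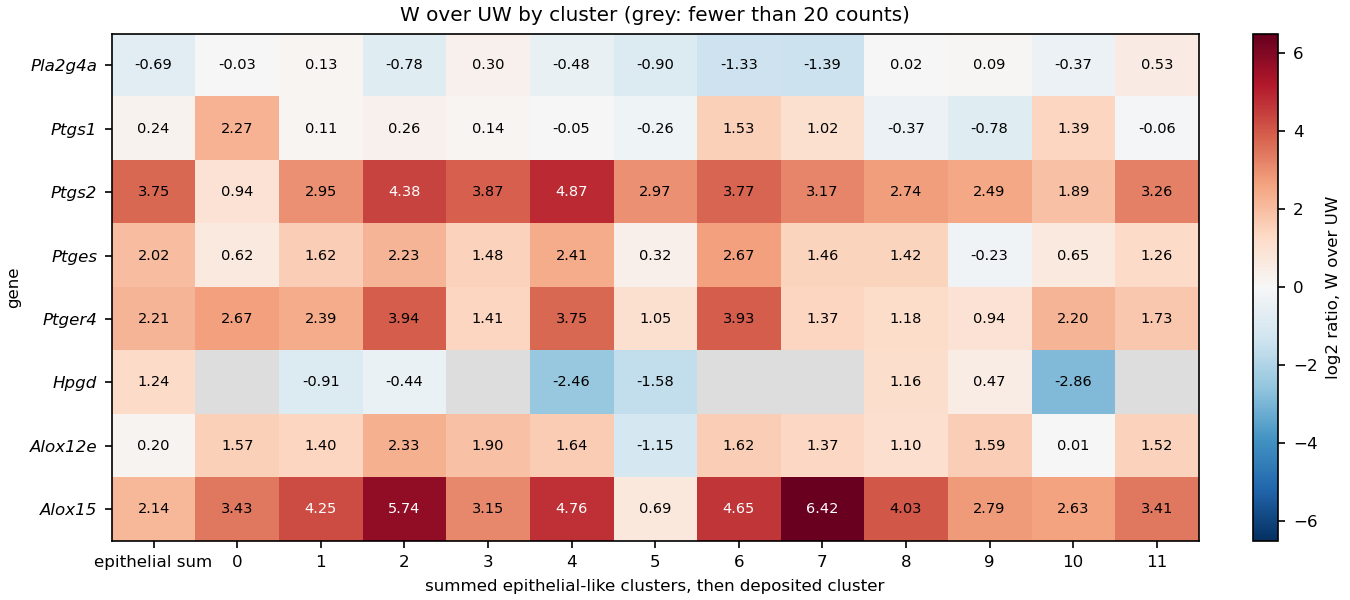
Log2 ratio of CPM, W over UW, for each gene (rows) in the summed epithelial-like clusters and in clusters 0 to 11 (columns), with genes of fewer than 20 counts in grey. The Ptgs2 row is above 1 everywhere but in cluster 0, at 0.94, while Pla2g4a is below -1 in clusters 6 and 7 alone.

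The first step of the pathway, arachidonate release by Pla2g4a, showed its main difference in the superficial epithelium. In the superficial-like cluster 6 Pla2g4a was at 95.8 CPM (92.9 to 98.8) in UW and 38.2 CPM (35.1 to 41.5) in W, 2.51-fold lower. In cluster 7 it went from 39.7 CPM (37.7 to 41.8) to 15.2 CPM (13 to 17.5), 2.62-fold lower. Both clusters thus held less Pla2g4a RNA per UMI in W, and the shares of cells with a UMI after thinning each cell to 5000 UMIs went the same way, from 37.6% to 15.2% and from 16% to 6.43%. In T cell-like cells of W, a cluster that also held mast cell markers and is used below as one outside the epithelium and stroma, Pla2g4a stood at 9.62 CPM (4.61 to 17.7), an interval that overlaps that of cluster 7 in W. These cells were shallow (median 4411 UMIs) and held more RNA of other types per UMI than the epithelial-like clusters of W, with 61.6 CPM of Kera against 12.3 to 16.9 CPM, so their levels are a comparison and not a measure of the background of the epithelium.

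Elsewhere Pla2g4a stayed inside the fold. It was lower in W in cluster 5 (82.6 and 44.2 CPM, 1.87-fold, 1.75 to 1.99), in cluster 2 (90.5 and 52.6 CPM, 1.72-fold, 1.62 to 1.83) and in cluster 4 (63.7 and 45.6 CPM, 1.40-fold). These clusters thus went the same way as the superficial-like ones. In the keratocyte-like cluster 0 it was 74.1 CPM in UW and 72.7 CPM in W, and the interval of the fold (0.925 to 1.04) held 1. In the basal-like cluster 3 it was 22 CPM and 27.1 CPM, 1.23-fold higher in W (1.10 to 1.37). In cluster 11 it was 26.9 CPM and 38.8 CPM, 1.44-fold higher in W (1.27 to 1.64). In the limbal-like cluster 9 it was 23.4 CPM and 24.8 CPM. The highest level in either library was in the Penk and Myoc cells of cluster 10, at 116 CPM (107 to 125) in UW and 89.8 CPM (83.5 to 96.5) in W. Within the unwounded epithelium Pla2g4a was thus lowest in the basal-like cluster 3, the limbal-like cluster 9 and cluster 11 (26.9 CPM), neighbours whose intervals overlapped, and highest in clusters 2 and 6, at 90.5 and 95.8 CPM.

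The 2 cyclooxygenase genes behaved differently from one another. Ptgs1 (chromosome 2, 36230426 to 36252272, plus strand) and Ptgs2 (chromosome 1, 150100031 to 150108227, plus strand) encode paralogous enzymes but lie on different chromosomes of the GRCm38 assembly. Their transcripts in the GENCODE M21 annotation shared 0 words of 50 bases with any other gene, and the same held for the other 6 genes. Ptgs2 neighbours Pla2g4a (chromosome 1, 149829618 to 149961290, minus strand) at 138.74 kb with 0 protein-coding genes between them.

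The windows of 250 bases just before the RefSeq transcription starts of Ptgs2, Ptgs1 and Ptges are printed because, in the epithelial-like sum, Ptgs2 and Ptges were the genes of prostaglandin E2 synthesis past the fold and Ptgs1 was the cyclooxygenase gene that was not. Capitals mark every match to one of 7 motifs searched on both strands. The cyclic AMP response element was searched by its core letters TGACG. The E-box, bound by several helix-loop-helix factors, was searched as CACGTG. The motif of C/EBP factors was searched with free middle letters, as TTGCNNAA, and that of the AP-1 factors likewise, as TGANTCA. The GC box, known from many promoters without other elements, was searched as GGGCGG. The TATA box, which places the start of transcription, was searched as TATAAA, and the NF-kB motif was the remaining one. Bases are from assembly GRCm38.p6, and the windows lie at chr1:150099781-150100030 (plus strand), chr2:36230176-36230425 (plus strand) and chr2:30903298-30903547 (minus strand) in the order printed.
Ptgs2: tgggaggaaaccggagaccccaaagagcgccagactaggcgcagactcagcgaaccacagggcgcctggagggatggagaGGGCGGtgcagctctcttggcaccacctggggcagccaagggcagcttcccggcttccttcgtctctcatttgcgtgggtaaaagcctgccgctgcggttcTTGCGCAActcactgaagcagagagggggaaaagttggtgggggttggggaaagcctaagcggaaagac
Ptgs1: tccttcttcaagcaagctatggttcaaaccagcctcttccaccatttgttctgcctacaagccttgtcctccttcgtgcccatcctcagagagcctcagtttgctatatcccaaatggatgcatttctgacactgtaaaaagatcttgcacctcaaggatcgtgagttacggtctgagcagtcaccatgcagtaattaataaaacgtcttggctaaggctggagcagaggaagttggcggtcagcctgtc
Ptges: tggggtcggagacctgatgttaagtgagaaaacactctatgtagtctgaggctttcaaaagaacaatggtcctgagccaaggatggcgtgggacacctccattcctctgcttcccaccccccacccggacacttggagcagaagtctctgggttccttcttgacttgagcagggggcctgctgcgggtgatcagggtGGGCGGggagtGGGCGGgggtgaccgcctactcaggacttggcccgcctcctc

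The Ptgs2 window held a C/EBP match, TTGCGCAA, which reads the same on both strands, from 69 to 62 bases before the start, and a GC box from 170 to 165 bases before it. The Ptges window held 2 GC boxes, at 53 to 48 and at 42 to 37 bases before the start, and the Ptgs1 window held 0 matches to the 7 motifs. None of these matches overlapped another. For comparison, 32807 RefSeq windows of the same length were searched, with the windows of a single chromosome left out. Of these, 9.57% held the C/EBP motif and 32.7% a GC box, 17.8% held the cyclic AMP core, 6.02% the E-box, 6.75% the AP-1 motif, 12.4% the TATA box and 1.21% the NF-kB motif. GC content was 61.6% for Ptgs2, 59.6% for Ptges and 48% for Ptgs1, against a median of 52.4% over the same 32807 windows.

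Ptgs1 was higher in W in the stroma, while its epithelial clusters differed in direction. In the epithelial-like sum it was 28.3 CPM (27.7 to 28.8) in UW and 33.4 CPM (32.6 to 34.1) in W, and the small difference went away with TMM scaling, at a log2 ratio of 0.023. In the keratocyte-like cluster 0 it was 17.1 CPM (15.6 to 18.7) in UW and 82.5 CPM (79.4 to 85.7) in W, 4.83-fold higher (4.38 to 5.33). In cluster 10 it was 23.3 CPM in UW and 60.9 CPM in W, 2.62-fold higher (2.16 to 3.19). Markers of these clusters also differed between the libraries. In cluster 0 Kera was 7482 CPM in UW and 2537 CPM in W, Lum 7733 and 4853 CPM and Kdr 216 and 72.6 CPM, and in cluster 10 Kera was 2747 and 795 CPM. Their part in the stromal differences of Ptgs1, Ptgs2 and Ptges was not tested. After thinning, 8.5% of keratocyte-like cells of UW and 29.1% of those of W had a UMI of Ptgs1. The order of the clusters therefore differed between the libraries for Ptgs1, with cluster 0 below 8 of the 10 epithelial-like clusters in UW and above all 10 in W.

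Within the epithelium Ptgs1 was lowest in the superficial-like clusters. It was 4.34 CPM in cluster 6 and 2.07 CPM in cluster 7 of UW, and 12.6 and 4.19 CPM in W, 2.89-fold and 2.03-fold higher and past the fold in both. The W levels there overlapped the interval of T cell-like cells of W (6.74 CPM, 2.71 to 13.9, on 7 counts). The highest level in UW was in the limbal-like cluster 9, at 70.8 CPM (64.9 to 77), where W had 41.3 CPM (38.8 to 43.9), 1.71-fold lower.

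Ptgs2 in the unwounded cornea was found mainly in stromal clusters. Keratocyte-like cells of UW held 118 CPM (114 to 122) and cluster 10 held 103 CPM (94.5 to 111), while the highest epithelial-like level in UW was 7.6 CPM (6.68 to 8.6), in cluster 3. Keratocyte-like cells were 14.4% of the cells of UW and carried 69.1% of the Ptgs2 UMIs of that library. In W they carried 35.4%. The epithelium had been digested with trypsin and the rest of the cornea with collagenase. The part of the digestion in the stromal and epithelial levels was not tested.

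In W the basal-like cluster 3 held 111 CPM (107 to 116), 14.7-fold (12.9 to 16.8) above UW. The cycling clusters 8 and 11 went from 7.03 to 46.9 CPM and from 6 to 57.4 CPM, and the suprabasal clusters 1 and 4 from 4.93 to 38.2 CPM and from 1.48 to 43.2 CPM. These 5 clusters stood above the T cell-like cells of W, which held 15.4 CPM (8.8 to 25). In the other 5 epithelial-like clusters of W, from 6.19 CPM in cluster 7 to 15.5 CPM in cluster 9, the level overlapped that of T cell-like cells or, in cluster 7, lay below it. Keratins of cluster 3 differed between the libraries too, with Krt12 at 29083 CPM in UW and 11905 CPM in W and Krt5 at 6928 and 5680 CPM. Their part in the Ptgs2 and Ptges differences of cluster 3 was not tested.

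The stroma of W also held more Ptgs2. Keratocyte-like cells had 227 CPM (221 to 232), 1.92-fold (1.84 to 2) above UW and just under the fold at a log2 ratio of 0.94, or past it at 1.08 with TMM scaling. Cluster 10 had the highest level of all clusters in W, 381 CPM (367 to 394), 3.71-fold (3.39 to 4.06) above UW. Among cells almost limited to W, cluster 13 held 264 CPM (241 to 288), the macrophage-like cluster 15 held 193 CPM (176 to 210) and cluster 14 held 75.4 CPM (66.8 to 84.8). Neighbours in this order, from cluster 10 through 13, 0, 15, 3, 14, 11 and 8, had intervals that did not overlap.

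Markers of other cell types were measured beside this result in the epithelial-like clusters of W. Of the keratocyte markers, Kera and Lum together made 58.8 to 93.4 CPM there, which is 0.80% to 1.26% of their level in cluster 0. The same share of the Ptgs2 level of cluster 0 is at most 2.86 CPM. The neutrophil list without S100a8 and S100a9, which epithelium also expresses, made 0.04% to 0.27% of its level in cluster 13, and the monocyte and macrophage list 0.07% to 1.09% of its level in cluster 15. The same shares of the Ptgs2 levels of those clusters are at most 0.70 and 2.11 CPM. With S100a8 and S100a9 the neutrophil list made 1.02% to 3.06% of its level in cluster 13, and the same share of the Ptgs2 level is 2.70 to 8.06 CPM, with 6.96 CPM in cluster 7. From which cells the S100a8 and S100a9 counts of these clusters came was not tested. The measured Ptgs2 level was 38.2 to 111 CPM in clusters 1, 3, 4, 8 and 11 of W, 12.5 to 15.5 CPM in clusters 2, 5 and 9, and 7.86 and 6.19 CPM in clusters 6 and 7. In UW the Kera and Lum share gave 0.37 to 0.46 CPM of Ptgs2 in clusters 2, 6 and 7, where 0.57 to 0.71 CPM was measured, so the folds of these 3 clusters are over a UW level near that share. Each share takes 1 source at a fixed makeup, none was taken for cluster 10, and the part of other cells in the Ptgs2 levels was not tested. The whole lists, S100a8 and S100a9 included, summed in the epithelial-like clusters to 2.09 to 155 CPM in UW and 352 to 1050 CPM in W for neutrophils, to 4.21 to 467 and 15.2 to 247 CPM for monocytes and macrophages, and to 271 to 694 and 299 to 492 CPM for keratocytes. In the basal-like cluster 3 of W, 5 of 6 neutrophil markers were detected with Ly6g at 0, and 7 of 8 monocyte and macrophage markers with Fcrls at 0.

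Ptgs2 was also spread unevenly over the cells. In the basal-like cluster 3, 7.1% of UW cells and 47.1% of W cells had at least 1 UMI of Ptgs2, at median depths of 18682 and 23906 UMIs. After thinning to 5000 UMIs the shares were 2.63% (1.93 to 3.51) and 27.4% (24.4 to 30.5). T cell-like cells of W had a UMI in 7.44% at a median of 4411 UMIs. Cells with 10 or more UMIs numbered 3 of 1789 in UW and 74 of 885 in W, and those 74 cells (8.36%) held 61.1% of the Ptgs2 UMIs of cluster 3 in W. In keratocyte-like cells the numbers were 50 of 2369 and 196 of 1719. The median cell of the basal-like cluster thus held no Ptgs2 UMI in either library.

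**Figure D3:**
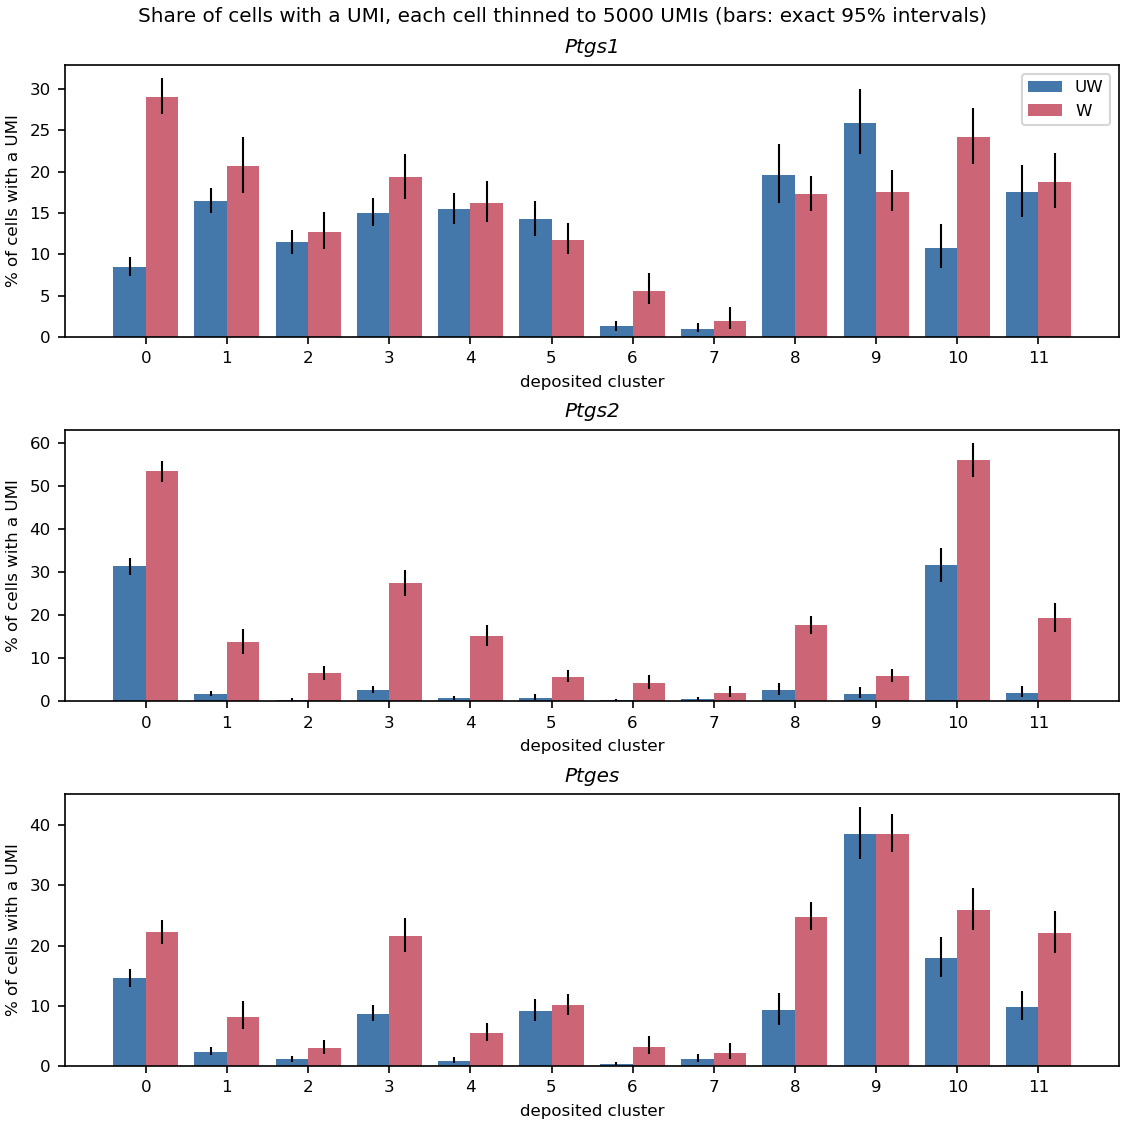
Share of cells with at least 1 UMI of Ptgs1, Ptgs2 or Ptges after thinning each cell to 5000 UMIs (y axis, percent) by deposited cluster, UW in blue and W in red, with exact 95% intervals. For Ptgs2 the bars of clusters 0 and 10 stand at 31.3% and 31.6% in UW while no epithelial-like cluster of UW exceeds 2.63%.

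Ptges, the inducible prostaglandin E2 synthase gene (chromosome 2, 30889471 to 30929863, minus strand), was highest in the limbal-like cluster 9. It held 112 CPM (105 to 120) there in UW and 95.8 CPM (92 to 99.8) in W, and after thinning 38.6% of the cells of either library had a UMI of it. The W interval overlapped that of macrophage-like cells of W (88.6 CPM, 77.7 to 100.5). In UW this was the one epithelial-like cluster above the keratocyte-like cells, which held 32.5 CPM (30.4 to 34.6).

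In the basal-like and cycling clusters Ptges was more than 2-fold higher in W. Cluster 3 went from 18.9 CPM (17.4 to 20.4) to 52.6 CPM (49.7 to 55.7), cluster 8 from 22.3 to 59.7 CPM and cluster 11 from 25.3 to 60.6 CPM. These 3 clusters came closer to the limbal-like level in W without reaching it. The ratio was also past the fold in clusters 1, 2, 4, 6 and 7, where the W levels, 5.61 to 17 CPM, overlapped that of T cell-like cells of W (11.5 CPM, 5.97 to 20.2). In the stroma the differences were smaller, 1.54-fold (1.42 to 1.67) in cluster 0 and 1.56-fold (1.34 to 1.83) in cluster 10. Macrophage-like cells of W held 88.6 CPM (77.7 to 100.5).

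Whether Ptgs2 and Ptges were found in the same cells varied between clusters of W. The basal-like cluster 3 is given first. Of its thinned cells in W with a UMI of Ptgs2, 17.3% also had a UMI of Ptges, against 23.2% of its cells without one. In keratocyte-like cells of W the shares were 22.3% and 22.1%, and in cluster 8 of W they were 19.8% and 25.9%. The order was the other way in the limbal-like cluster 9 of W, at 48.2% and 38% with 56 cells in the first share, in cluster 11, at 26.2% and 21.2% with 107 cells, in cluster 5, at 11.9% and 9.95% with 67 cells, and in cluster 15, thinned to 2000 UMIs, at 15.2% and 9.27% with 46 cells. In cluster 10 of W the shares were 23.6% and 29.0%. No test was made on cells, and thinning leaves many expressing cells without a UMI.

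Ptger4, the gene of the EP4 receptor (chromosome 15, 5206661 to 5244187, minus strand), had a low level in the cornea and stood highest in the conjunctival-like cluster. There it was 20.2 CPM (18.6 to 22) in UW and 41.9 CPM (39.8 to 44.1) in W, 2.07-fold higher (1.88 to 2.29), or a log2 ratio of 1.05 that was 0.93 under a stricter cell filter. In the limbal-like cluster 9 it was 9.45 CPM (7.4 to 11.9) and 18.2 CPM (16.5 to 19.9), just under the fold at a log2 ratio of 0.94 and past it at 1.07 with TMM scaling. T cell-like cells of W held 33.7 CPM (23.5 to 46.8) and cells of clusters 14 and 15 held 29 and 25.8 CPM, so leukocyte clusters held it too.

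In the remaining epithelial-like clusters Ptger4 lay between 0.413 and 2.89 CPM in UW and between 2.44 and 8.38 CPM in W. Keratocyte-like cells, which had 4 counts in UW and 29 in W, stood at 0.141 and 0.894 CPM. All 10 epithelial-like clusters of W stood above them, and in UW all but clusters 2 and 6. The largest ratios were in clusters 2, 4 and 6, where 18 to 28 counts in UW met 94 to 190 in W. In cluster 10 the level was 2.45 CPM in UW and 11.3 CPM in W.

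Hpgd, whose enzyme inactivates prostaglandin E2 (chromosome 8, 56294585 to 56321043, plus strand), was sparse, with 423 counts in all cells of UW and 758 in all cells of W. Its epithelial counts came mainly from clusters 5 and 9 in UW and from clusters 5, 8 and 9 in W. The limbal-like cluster 9 held 11.3 CPM (9.03 to 13.9) in UW and 15.6 CPM (14.1 to 17.3) in W, and the conjunctival-like cluster 5 held 7.94 CPM (6.92 to 9.08) and 2.65 CPM (2.15 to 3.24). Hpgd was thus 2.99-fold lower in W in cluster 5 and 1.38-fold higher (1.09 to 1.77) in cluster 9.

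The 2.37-fold higher Hpgd of the epithelial sum thus joins clusters of unlike ratios. Cluster 9 was 3.17% of all cells in UW and 7.70% in W, and it supplied 22.2% of the epithelial Hpgd UMIs in UW and 59.2% in W. Without cluster 5, a comparison added after the data had been seen, the ratio was 4.89-fold. In cluster 10 Hpgd was 6.13 CPM on 35 counts in UW and 0.841 CPM on 7 counts in W, 7.28-fold lower, and in cluster 4 it was lower on 21 counts against 2. Cluster 8 was the single cluster past the fold in the other direction, with 17 counts (1.33 CPM) in UW and 145 (2.98 CPM) in W, 2.24-fold higher, and it supplied 4.39% and 22.1% of the epithelial Hpgd UMIs. In W, macrophage-like cells held 17 CPM (12.4 to 22.6) and cluster 14 held 11.7 CPM (8.44 to 15.7), while T cell-like cells and cluster 13 had 0 counts, which allows up to 3.55 and 2.01 CPM.

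The lipoxygenase genes Alox12e (chromosome 11, 70315610 to 70322628) and Alox15 (70344152 to 70352031) are neighbours on the minus strand, 21.523 kb apart with 0 protein-coding genes between them. Both were among the 10 genes that led the conjunctival-like cluster 5, so their height there describes that cluster and is no result. Cluster 5 held 84.6% of the epithelial UMIs of Alox12e in UW and 62% in W, and for Alox15 it held 93.5% and 63.8%.

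Within cluster 5 the 2 genes went opposite ways. Markers of the cluster differed between the libraries too. Krt8 was 133 CPM in UW and 49.5 CPM in W, Krt12 5205 and 2230 CPM and the limbal marker Wfdc18 11.8 and 199 CPM, while Krt4 was 3016 and 3291 CPM and Krt19 1489 and 1727 CPM. Their part in the differences of Alox12e, Alox15 and Hpgd in this cluster was not tested. Alox12e was 226 CPM (220 to 232) in UW and 102 CPM (98.5 to 105) in W, 2.22-fold lower. Alox15 was 59.6 CPM (56.7 to 62.6) in UW and 95.9 CPM (92.8 to 99.2) in W, 1.61-fold higher (1.52 to 1.71) and under the fold. A UMI of Alox12e was found in 33.1% of UW and 39.3% of W cells, at median depths of 24009 and 28144 UMIs, and after thinning in 27.7% (25 to 30.5) and 24.1% (21.7 to 26.7). Cells with 10 or more UMIs of Alox12e made up 19% (16.7 to 21.4) in UW and 10.7% (9.05 to 12.6) in W. The share of cells with a high count was thus lower in W, while the share with any UMI was higher in W before thinning and had overlapping intervals after it. With each cell weighted equally the log2 ratio of Alox12e was -0.91 in place of -1.15, inside the fold. For Alox15 both measures were higher in W, with 12.5% and 23% of thinned cells having a UMI and 5.18% and 10.2% of cells holding 10 or more. Keratocyte-like cells had a UMI of Alox12e in at most 1.11% and of Alox15 in at most 1.35% after the same thinning.

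The 2 lipoxygenase genes shared cells of cluster 5. In UW 39.7% of the thinned cells with a UMI of Alox12e also had one of Alox15, against 2.1% of the cells without. In W the shares were 65.7% and 9.4%. The same held in cluster 9 of W, with 29.2% against 5.7%.

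**Figure D4:**
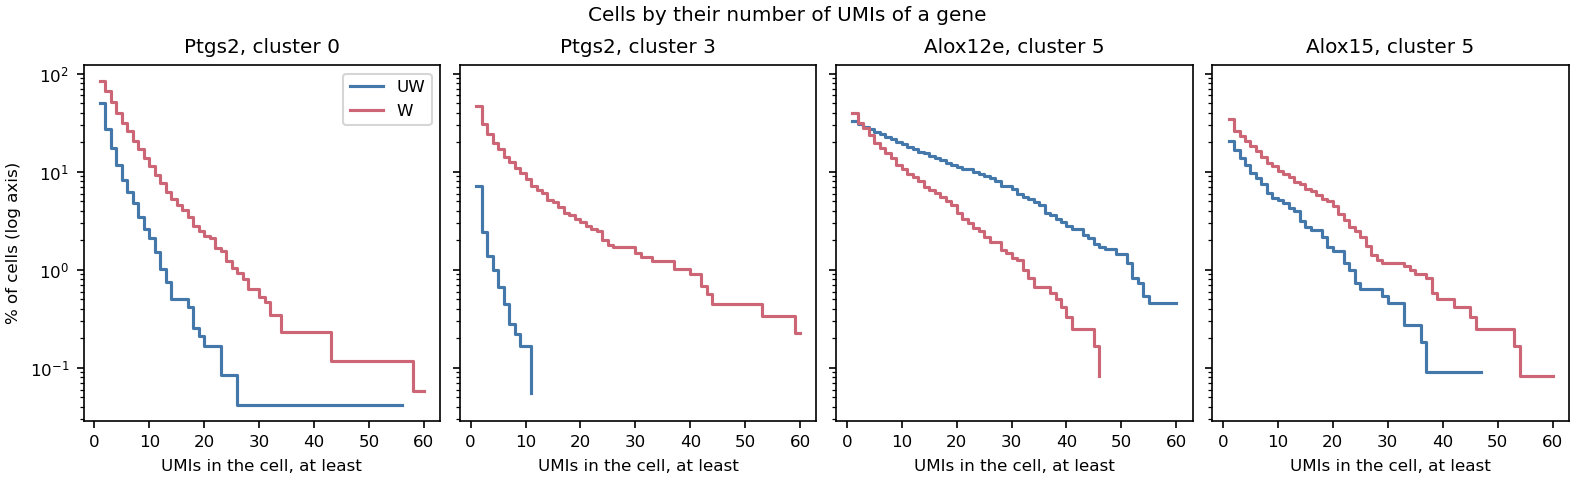
Percent of cells (log axis) with at least the number of UMIs on the x axis, shown to 60, for Ptgs2 in clusters 0 and 3 and for Alox12e and Alox15 in cluster 5, UW in blue and W in red. The Alox12e curves cross, with W above at 1 and 2 UMIs (39.3% against 33.1% at 1) and UW above at higher counts, with 19% of UW and 10.7% of W cells at 10 or more, while the Ptgs2 curves of cluster 3 are apart from the first UMI on.

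Outside cluster 5, Alox12e and Alox15 in W stood above both keratocyte-like and T cell-like cells in the superficial-like cluster 7 and the limbal-like cluster 9. In cluster 7 Alox15 had 14 counts (0.386 CPM) in UW and 394 counts (33 CPM, 29.8 to 36.4) in W, 85.5-fold higher (50.4 to 158). The UW level of cluster 7 (0.211 to 0.647 CPM) overlapped that of keratocyte-like cells (0.211 CPM, 0.077 to 0.459), so this fold is over a level not above theirs. Alox12e there was 20.5 CPM (19.1 to 22.1) and 53.1 CPM (49 to 57.4). In cluster 9 Alox15 was 3.28 CPM (2.12 to 4.85) and 22.7 CPM (20.9 to 24.6), and Alox12e 11.6 CPM (9.27 to 14.2) and 34.7 CPM (32.5 to 37.1). In cluster 7 the counts were carried by few cells, with 10 or more UMIs of Alox15 in 0 of 1511 UW cells and 8 of 528 W cells, which held 45.2% of its Alox15 UMIs in W. Keratins that led cluster 5 were also higher there in W. Krt4 was 74.4 and 616 CPM in cluster 7 and 136 and 285 CPM in cluster 9, and Krt19 was 171 and 1058 CPM in cluster 7 and 9.72 and 49.3 CPM in cluster 9, against 3016 and 3291 CPM of Krt4 in cluster 5. Their part in the result was not tested.

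In the other clusters past the fold the levels of these 2 genes were low. In clusters 1, 2, 3, 4, 6 and 11 of W Alox12e lay between 2.21 and 4.3 CPM, overlapping keratocyte-like cells (2.71 CPM, 2.18 to 3.34) and T cell-like cells (4.81 CPM, 1.56 to 11.2), and in cluster 8, at 8.19 CPM, it overlapped the T cell-like cells. Alox15 in clusters 1, 2, 3, 4, 6, 8 and 11 of W lay between 4.41 and 7.66 CPM, above keratocyte-like cells (2.28 CPM, 1.79 to 2.86) but overlapping T cell-like cells (6.74 CPM, 2.71 to 13.9, on 7 counts). The level of keratocyte-like cells was itself higher in W, at 2.67% of the cluster 5 level for Alox12e and 2.38% for Alox15, than in UW, at 0.40% and 0.35%. How much of these low levels is free RNA was not tested. In the epithelial sum Alox12e had a log2 ratio of 0.20, which turned to -0.019 with TMM scaling and was 1.61 without cluster 5, so no direction is given for it. For Alox15 the log2 ratio of the sum was 2.14, and 4.73 without cluster 5.

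Beyond the 8 genes, a list of 58 other eicosanoid genes was examined, of which 52 were in the table and 42 had at least 20 counts in the epithelial-like cells. Of these, 9 were higher past the fold, 5 were lower and 28 were neither, with a median log2 ratio of 0.08. The share higher, 9 of 42, is close to the 21.8% of all genes tested in these cells, of which 8.77% were lower. With TMM scaling 7 were higher and 6 lower, where 17.4% and 12.7% of all genes were. Of 13 lipoxygenase and leukotriene genes 7 were higher and 2 lower (6 and 2 with TMM scaling), of 12 arachidonate release genes 1 was higher and 2 lower (0 and 2), of 9 prostanoid synthases 1 was higher and 0 lower (the same), and of 5 transport and inactivation genes 0 were higher and 1 lower (0 and 2). None of 3 prostanoid receptor genes passed the fold in either direction.

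The 3 highest ratios of this list belonged to genes whose levels peaked in leukocyte clusters of W. Fpr2, a formyl peptide and lipoxin receptor, had 3 counts in UW and 50 in W (log2 ratio 4.54, 2.91 to 6.86), Alox5ap, the helper protein of leukotriene synthesis, had 18 and 220 (4.09, 3.40 to 4.87), and Cmklr1, the chemerin receptor, had 56 and 242 (2.59, 2.17 to 3.04). Their highest levels lay in cluster 13 for Fpr2 (135 CPM) and Alox5ap (544 CPM) and in cluster 15 for Cmklr1 (45 CPM), and in the epithelial-like sum of W they were at 0.21, 0.92 and 1.01 CPM.

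Among the 3 lowest ratios, Pla2g2f, a secreted phospholipase, was at 0.71 CPM in UW and 0.13 CPM in W (log2 ratio -2.41). Ephx2, the soluble epoxide hydrolase, was at 32.8 and 9.6 CPM (-1.77), and Ptgr1, a reductase that acts on oxidised prostaglandins and leukotriene B4, was at 392 and 120 CPM (-1.71). Both Ephx2 and Ptgr1 had their highest level in the suprabasal cluster 1 of UW, at 65 and 773 CPM.

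Genes of the list with at least 100 CPM somewhere also marked where eicosanoid steps were expressed. Among synthases, Ptgis (prostacyclin synthase) was highest in cluster 10 of W at 370 CPM, Hpgds in the basal-like cluster 3 of UW at 215 CPM, Ptges3 in cluster 8 of W at 354 CPM and Akr1b3 in cluster 2 of W at 537 CPM. Pla2g7 was highest in macrophage-like cells of W at 391 CPM, Pla2g16 in the superficial-like cluster 7 of UW at 669 CPM and Anxa1, whose protein restrains phospholipase A2, in cluster 3 of W at 2788 CPM. Ltb4r1, a leukotriene B4 receptor, was highest in cluster 13 at 143 CPM.

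**Figure D5:**
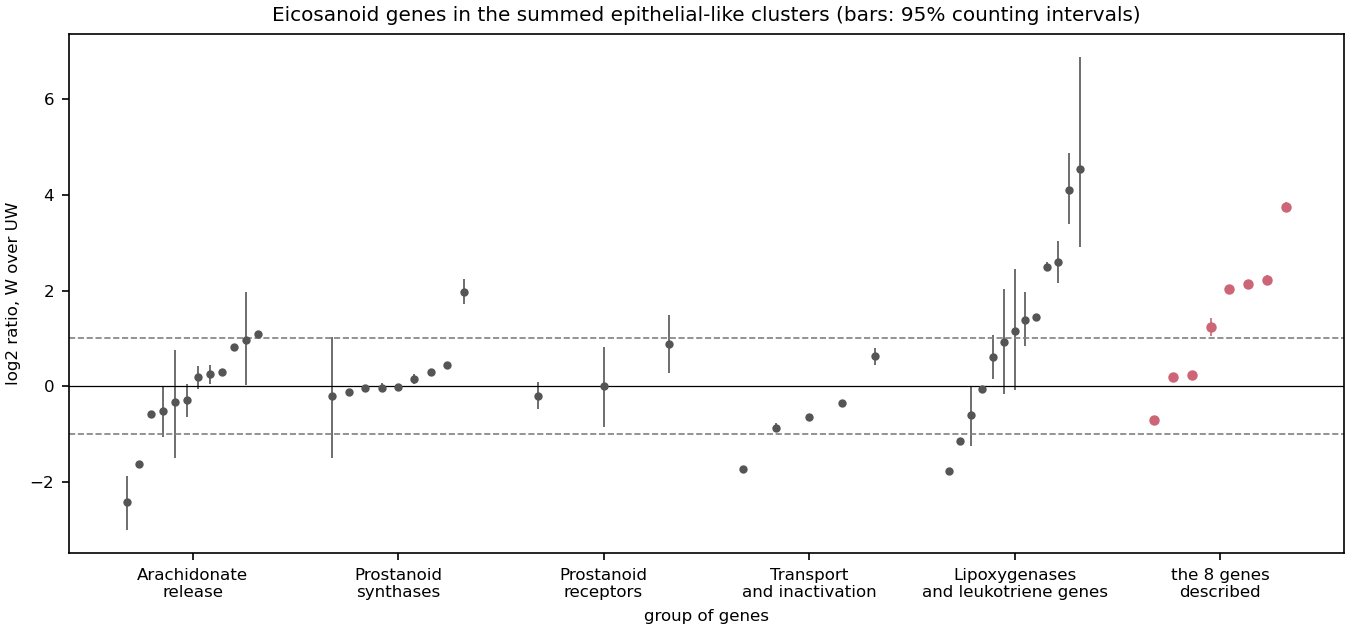
Log2 ratio of CPM, W over UW, in the summed epithelial-like clusters for the 42 other eicosanoid genes with at least 20 counts (grey, by group) and for the 8 genes described (red), with 95% counting intervals and dashed lines at 1 and -1. Ptgs2, at 3.75, is the highest of the 8, and among the other genes Fpr2 and Alox5ap, at 4.54 and 4.09, lie above it with wide intervals.

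Genes whose levels over the 28 groups of cluster and library followed those of the 8 genes most closely were found by Pearson's r of log2(CPM + 1) over 6055 genes that reached 50 CPM somewhere, as a description over groups that share a library. The levels of Ptges followed Pdpn (podoplanin, r = 0.95), Swap70 (0.92) and Tpm1 (0.91), and those of Ptgs2 followed Bbip1 (0.92), Ifitm2 (0.91) and Smim3 (0.90). For Ptgs1 they were Aig1 (0.92), Nqo1 (0.90) and Frmd6 (0.88), and for Pla2g4a they were Abhd16a, Gsn (0.84 each) and Slc35f5 (0.83). Ptger4 was closest to Casp4 (0.85), Apobec3 (0.84) and Wfdc18 (0.82), and Hpgd to Flrt3 (0.74), Hspb8 and Zfp703 (0.70 each). Alox12e was closest to Fut9 (0.85), Krt7 (0.85) and Nt5e (0.84), and Alox15 to Serpinb3a (0.92), Sptssb (0.87) and Agr2 (0.86). Among the 8 genes themselves the highest value was 0.83, for Alox12e with Alox15, then 0.74 for Ptger4 with Alox15 and 0.68 for Ptges with Ptgs2, while Ptgs1 with Ptgs2 had 0.32.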

How the data were processed

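Single-cell RNA was captured by the 10x Genomics method from pooled corneas of 4 mice per condition, 1 library each. Corneas were split with dispase, the epithelium was digested with trypsin and the rest with collagenase before pooling. The authors aligned reads with Cell Ranger 3.1.0, filtered cells on genes and mitochondrial share, called doublets, removed cells marked by dissociation genes and clustered in Seurat. The deposited table holds raw UMI counts of 20198 genes in 28867 cells. A second deposited table gives the library, cluster, UMIs, genes, mitochondrial share and doublet calls of each cell. The submitters' notes name build mm9 and the study's methods mm10; no coordinates of the files are used. The kit is named as version 3 by the labels and version 2 in the methods.

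Counts were summed per cluster and library (16450 and 12417 cells, 367166822 and 289586482 UMIs) with Python 3.11.15, and scaled to the total. Intervals are 95% Poisson, Clopper-Pearson or conditional binomial, exact. The intervals of ratios were tried on sums simulated as Poisson counts, which cannot test the spread between cells or mice. No ratio was formed where neither library held more than 3 counts. The bound printed for a sum of 0 is the upper end of the exact Poisson interval. Cells were thinned to 5000 UMIs (2000 in clusters 13 to 17), leaving out 444 UW and 393 W cells. edgeR 4.0.16 and DESeq2 1.42.0 gave scaling factors only. Clusters were labelled from marker lists, and stay numbers where the leading genes did not bear the name. The 8 genes, the other eicosanoid genes and the markers were listed with earlier results of these data known. Genes most like a member are the 3 highest by r. Of the eicosanoid list, the 3 highest and 3 lowest ratios were named, with the cluster of the highest level for genes above 100 CPM. Ribosomal, mitochondrial and haemoglobin genes were left out of the likeness. No test was made, since each condition is 1 library. Promoter windows are from RefSeq (GRCm38.p6), which matched 7 of the 8 genes, and gene positions from GENCODE M21.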

Additional observations from a re-analysis of the deposited data

Results flagged for a closer look

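Alox12e and Hpgd were past the fold in opposite directions in different clusters, with 1 library per condition. Alox12e had a log2 ratio of -1.15 in the conjunctival-like cluster 5, on 6090 counts in UW and 3679 in W, and its highest ratio was 2.33 in cluster 2, on 47 and 89 counts. The level in cluster 2 of W, 3.89 CPM, overlapped that of T cell-like cells, while the levels in clusters 7 (log2 ratio 1.37, or 0.99 with TMM scaling) and 9 (1.59) were above it. Hpgd had a log2 ratio of -2.86 in cluster 10, on 35 and 7 counts, and of 1.16 in cluster 8, on 17 and 145 counts. The difference between the clusters was not tested for either gene.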

How the results depend on the processing

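All 5 genes past the fold in the epithelial-like sum stayed past it in the same direction under each alternative that gave a value, and Ptgs1, Pla2g4a and Alox12e stayed within it except Alox12e without cluster 5 and with equal weight per cluster. Log2 ratios were, with TMM scaling, 0.023 for Ptgs1, 3.53 for Ptgs2, 1.81 for Ptges, 1.02 for Hpgd, 1.997 for Ptger4, -0.91 for Pla2g4a, -0.019 for Alox12e and 1.92 for Alox15, and with DESeq2 size factors 0.0063, 3.52, 1.79, 1.01, 1.98, -0.93, -0.035 and 1.91 in the same order. Among all called genes, 71.3% were higher as reported, 57.9% with TMM and 56.9% with DESeq2, and with TMM the share went from 43.1% to 54.2% in cluster 0, 64.2% to 52.6% in cluster 6, 78.2% to 49.8% in cluster 7, 48.3% to 60.4% in cluster 9 and 42.8% to 53.0% in cluster 10. Weighting each cell equally gave 0.12 for Ptgs1, 1.54 for Ptges, -0.64 for Pla2g4a and 0.34 for Alox12e. Weighting each cluster equally gave 0.15 for Ptgs1, 3.45 for Ptgs2, 1.46 for Ptges, -0.38 for Pla2g4a, 1.33 for Alox12e and 3.99 for Alox15, and gave no value for Hpgd, whose 1 count per library in cluster 7 has no ratio. The call of Hpgd in the sum was therefore not checked by this alternative. Among single epithelial-like clusters Hpgd was higher past the fold in 1 and lower in 2. Thinning gave 1.55 for Ptges, 0.29 for Alox12e and 2.24 for Alox15, the stricter cell filter 2.15 for Ptges and 2.24 for Alox15, and leaving out called doublets 0.10 for Alox12e and 2.06 for Alox15. The next 3 comparisons were chosen after seeing the data. Without cluster 5 the ratios were 0.31 for Ptgs1, 3.86 for Ptgs2, 2.25 for Ptges, 2.29 for Hpgd, 2.65 for Ptger4, 1.61 for Alox12e and 4.73 for Alox15. Without clusters 8 and 11 they were 1.87 for Ptges, 2.47 for Ptger4, 0.47 for Alox12e and 2.39 for Alox15. Without barcodes found in both libraries each ratio stayed inside its interval.

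Thinning lowered every share of epithelial-like cells with a UMI, by construction. In UW the thinned shares were 12.3% for Ptgs1, 1.18% for Ptgs2, 5.01% for Ptges, 0.61% for Hpgd, 1.37% for Ptger4, 22.8% for Pla2g4a, 3.26% for Alox12e and 1.16% for Alox15. In W they were 14.7%, 12.1%, 15.3%, 1.38%, 5.57%, 15.2%, 7.23% and 6.71% in the same order. The unthinned shares were 39.2%, 4.11%, 14.1%, 2.13%, 4.79%, 60.3%, 5.12% and 2.35% in UW and 49%, 31.5%, 44.5%, 4.18%, 20.7%, 53.6%, 15.7% and 15.4% in W. In single clusters 56 pairs of gene and cluster were higher past the fold and 6 lower, against 52 to 56 and 6 to 7 under the 4 alternatives, and 0 of the called pairs changed direction. Calls that ended under thinning were Ptges (0.83), Ptger4 (0.96) and Ptgs1 (0.86) in cluster 7 and Alox12e in cluster 8 (0.79, or 0.99 under the stricter filter). No paired analysis was possible because each condition has 1 library, and for the same reason no replicate could be left out. Hpgd, and Alox15 in UW outside clusters 5 and 9, rest on few counts, and no value here separates wounding from any other difference between the 2 libraries.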
